A study of Mus musculus with 5 samples.

Results

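Genes that present peptides on major histocompatibility complex (MHC) class II were followed in kidney RNA of NZB/NZW F1 mice. The members were chosen by name as the rows H2-Aa, H2-Ab1, H2-Eb1, H2-DMa, H2-DMb1, Cd74, Ciita and Ctss, and all 8 were found among the 21878 genes of the deposited expression table. NZB/NZW F1 mice are the offspring of NZB females and NZW males, and they spontaneously develop lupus-like autoimmunity with nephritis. In the diosmetin group (3 libraries) the mice were injected intraperitoneally on alternate days, over 6 weeks, with 50 mg/kg of diosmetin, which is a flavone found in plants. In the vehicle group (2 libraries) vehicle was injected on the same schedule. All libraries came from whole kidney of the same hybrid genotype, and the labels give neither the age or sex of the treated mice nor the composition of the vehicle. The labels do not say that each library is a separate animal, so the p-values rest on the scatter of these libraries alone, part or all of which could be technical.

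Class II molecules are pairs of an alpha and a beta chain that carry peptides from endocytosed protein to CD4+ T cells. The invariant chain Cd74 fills the binding groove of a new molecule, proteases including cathepsin S (Ctss) cut it down in the endosome, and H2-DM helps peptide to replace the last fragment. Ciita is the coactivator that switches this set of genes on. It does not bind DNA itself but is recruited by the factors that sit on the X and Y boxes of class II promoters. Dendritic cells, macrophages and B cells make class II constantly, while kidney tubule and endothelial cells can be induced to make it by interferon gamma.

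The genes of the chains and of H2-DM lie together on mouse chromosome 17. In the RefSeq annotation of GRCm38, H2-DMa spans 34119693 to 34139101, H2-DMb1 34153191 to 34160229, H2-Ab1 34263227 to 34269418, H2-Aa 34282744 to 34287823 and H2-Eb1 34305867 to 34316674. Ciita lies on chromosome 16 from 10480014 to 10531064 and Ctss on chromosome 3 from 95526786 to 95556405. The reference genome is from C57BL/6J, which carries the b haplotype of this complex, whereas NZB mice carry d and NZW mice z. Class II genes are highly polymorphic, and how that changed the share of fragments assigned to them was not tested. Both groups share the same hybrid genotype.

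Promoters are shown because Ciita acts through them. RefSeq promoters (assembly GRCm38.p6) are described for 5 of the 8 members. None was on hand for H2-Ab1 or Ciita, and Cd74 was left out. Both strands of the 250 bases before each start were searched for the Y box, TGATTGG, and for the X box by a pattern of the class II form, of which AGCAACTGATG in H2-Eb1 and AGTAACTGATG in H2-DMb1 were matches. Matches are in capitals. The 250 bases of H2-Eb1 (chr17:34305617-34305866, plus strand), H2-DMb1 (chr17:34152941-34153190, plus strand), its near copy H2-DMb2 (chr17:34144999-34145248, plus strand) and H2-Aa (chr17:34287824-34288073, minus strand) read 5′ to 3′ as follows.
H2-Eb1: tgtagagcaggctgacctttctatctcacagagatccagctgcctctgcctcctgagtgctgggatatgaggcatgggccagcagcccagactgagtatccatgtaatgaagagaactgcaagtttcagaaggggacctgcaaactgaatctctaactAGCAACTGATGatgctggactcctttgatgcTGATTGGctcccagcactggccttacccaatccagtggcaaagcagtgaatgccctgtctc
H2-DMb1: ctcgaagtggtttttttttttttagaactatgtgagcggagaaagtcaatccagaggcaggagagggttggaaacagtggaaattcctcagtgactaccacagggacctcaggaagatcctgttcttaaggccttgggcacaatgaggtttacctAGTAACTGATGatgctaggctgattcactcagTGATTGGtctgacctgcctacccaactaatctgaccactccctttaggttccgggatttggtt
H2-DMb2: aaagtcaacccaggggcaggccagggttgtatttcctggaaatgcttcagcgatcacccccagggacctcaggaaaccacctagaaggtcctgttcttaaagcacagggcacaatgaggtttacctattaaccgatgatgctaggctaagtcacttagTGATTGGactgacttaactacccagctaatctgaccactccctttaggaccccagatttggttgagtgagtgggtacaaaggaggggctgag
H2-Aa: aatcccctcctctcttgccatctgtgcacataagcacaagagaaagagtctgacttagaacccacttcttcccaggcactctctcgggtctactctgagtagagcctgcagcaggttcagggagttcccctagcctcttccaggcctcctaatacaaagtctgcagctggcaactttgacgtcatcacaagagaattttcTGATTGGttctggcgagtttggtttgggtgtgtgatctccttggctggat

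In H2-Eb1 an X box was followed by a Y box after 20 bases, and in H2-DMb1 after 21 bases. H2-DMb2 and H2-Aa held the Y box letters but not these X box letters, and neither box was matched in the promoter of Ctss. Nor was either matched in the stretches on hand for H2-DMa, chr17:34122582-34122831 and chr17:34125268-34125517. Both lie inside the span given above for H2-DMa, and other starts of that gene were not searched. Of 32851 promoters in the RefSeq table, 0.816% held an X box match and 7.23% a Y box match. An X box followed by a Y box 15 to 25 bases later on the same strand was found in 3 promoters (0.00913%), which belonged to H2-Eb1, H2-DMb1 and H2-Eb2. In Ctss a match to an interferon element, GAAACCGAAA, stood at bases -21 to -12 before the start. The pattern of that element was matched in 2.98% of all promoters. The gamma-activated element TTCNNNGAA (7.02% of all promoters) and the W box GGACCNT (9.65%) were not matched in the promoters of the 5 members. Both were matched in the promoter of H2-DMb2, which is not a member, and are not in capitals above. These matches describe reference sequence and are not evidence of binding.

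Levels are given as FPKM, fragments per kilobase of transcript scaled to library size, which the authors deposited for each library. Differences are on the log2(FPKM + 1) scale, diosmetin minus vehicle, with the adjusted p of limma over the 13290 genes that averaged 0.5 FPKM or more. All 8 members passed that filter. Low values step by whole fragments, which gave estimated depths of 46900000, 43000000 and 45100000 fragments for diosmetin replicates 1 to 3, against 38400000 and 48600000 fragments for vehicle replicates 1 and 2. By limma 0 of the 13290 genes (0%) passed an adjusted p of 0.05, while 847 (6.37%) had an unadjusted p under 0.05, 4.68% with a higher and 1.69% with a lower level under diosmetin. Vehicle replicate 1 was the lowest library for 38.7% of all genes tested and vehicle replicate 2 the highest for 17.8%.

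All 8 class II presentation genes had a higher mean log2 level under diosmetin, and all 8 were lowest in vehicle replicate 1. Of all genes tested, 63.9% had a higher mean log2 level. None of the members passed the test, and none had an unadjusted p under 0.05. This does not show that their levels were alike, since the upper ends of the 95% intervals ran from 0.41 for Ciita to 1.41 for Ctss. The median difference of the members was 0.23, beside 0.043 over all genes tested. For 6 members vehicle replicate 2 lay inside the range of the diosmetin libraries. Without vehicle replicate 1 the median difference was -0.036, and without vehicle replicate 2 it was 0.58.

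**Figure D1:**
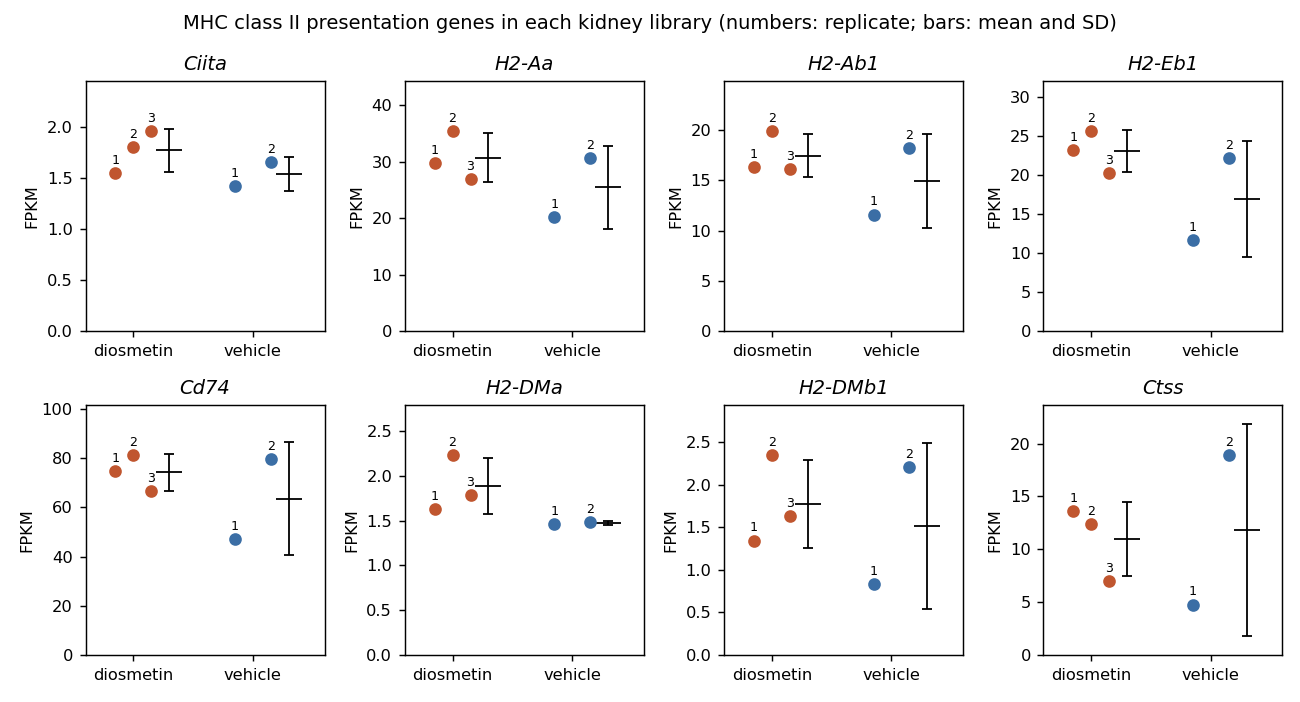
FPKM of each member in each library (vertical axis from 0), with the 3 diosmetin libraries left and the 2 vehicle libraries right, numbered by replicate, and the mean and SD of each group as a bar. Vehicle replicate 1 is the lowest point in every panel, and only for H2-DMa do the groups not overlap.

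Ciita, the coactivator, was at 1.55, 1.80 and 1.96 FPKM in diosmetin replicates 1 to 3, against 1.42 and 1.66 FPKM in vehicle replicates 1 and 2. The groups overlapped, and the highest library was 1.38 times the lowest, the narrowest range of the members. The log2 difference was 0.12 ± 0.12 (SE, adjusted p = 0.82, limma). It was 0.056 without vehicle replicate 1, 0.074 without diosmetin replicate 3 and 0.19 without vehicle replicate 2. These levels rested on an estimated 328 to 531 fragments per library.

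H2-Aa, the alpha chain of the A molecule, was at 29.8, 35.5 and 27.0 FPKM in diosmetin replicates 1 to 3, against 20.3 and 30.7 FPKM in vehicle replicates 1 and 2. H2-Ab1, its beta chain, was at 16.3, 19.9 and 16.2 FPKM under diosmetin, against 11.6 and 18.2 FPKM under vehicle. In both chains diosmetin replicate 2 was highest and vehicle replicate 2 second, while vehicle replicate 1 stood below all others. The means were 30.7 ± 4.29 (SD, n = 3) against 25.5 ± 7.33 FPKM (SD, n = 2) for H2-Aa, and 17.4 ± 2.11 (n = 3) against 14.9 ± 4.70 FPKM (n = 2) for H2-Ab1. The log2 differences were 0.28 ± 0.19 for H2-Aa (SE, adjusted p = 0.76, limma) and 0.24 ± 0.19 for H2-Ab1 (SE, adjusted p = 0.79, limma).

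H2-Eb1, the beta chain of the E molecule, was at 23.2, 25.6 and 20.3 FPKM in diosmetin replicates 1 to 3, against 11.6 and 22.1 FPKM in vehicle replicates 1 and 2. It had the largest log2 difference of the members, 0.49 ± 0.25 (SE, 95% interval -0.12 to 1.09, adjusted p = 0.74, limma). Vehicle replicate 2 again lay inside the diosmetin range, and without vehicle replicate 1 the difference was 0.048.

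The invariant chain Cd74, encoded on chromosome 18 from 60803849 to 60812652, was the most abundant member per length. It was at 74.7, 81.4 and 66.5 FPKM in diosmetin replicates 1 to 3, against 47.2 and 79.8 FPKM in vehicle replicates 1 and 2, on an estimated 2557 to 5467 fragments. The log2 difference was 0.26 ± 0.22 (SE, adjusted p = 0.79, limma), and -0.11 without vehicle replicate 1.

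H2-DM was expressed at a far lower level than its class II substrates. H2-DMa, the alpha chain, was at 1.63, 2.23 and 1.78 FPKM in diosmetin replicates 1 to 3, against 1.46 and 1.49 FPKM in vehicle replicates 1 and 2. It was the only member whose groups did not overlap, 1 of 8 beside 24.5% of all genes tested, 18.3% being higher and 6.17% lower under diosmetin. With median-of-ratios scaling 11.7% of all genes tested were higher and 10.6% lower without overlap. The vehicle libraries of H2-DMa lay close together, and the log2 difference was 0.21 ± 0.13 (SE, adjusted p = 0.75, limma). It was 0.13 without diosmetin replicate 2. H2-DMb1, a beta chain, was at 1.35, 2.35 and 1.64 FPKM under diosmetin, against 0.832 and 2.21 FPKM under vehicle, a log2 difference of 0.18 ± 0.27 (SE, adjusted p = 0.88, limma). Its lowest value rested on an estimated 44.8 fragments. GENCODE transcripts of H2-DMb1 and H2-DMb2 are 94.6% identical over 1219 aligned bases, so how fragments were divided between these copies is uncertain.

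Ctss, cathepsin S, varied most and did not follow the chains. It was at 13.6, 12.4 and 6.98 FPKM in diosmetin replicates 1 to 3, against 4.77 and 18.9 FPKM in vehicle replicates 1 and 2. The vehicle libraries held both the lowest and the highest value, which differed 3.97-fold. The mean FPKM was 11.0 ± 3.52 (SD, n = 3) against 11.9 ± 10.02 (SD, n = 2), so lower under diosmetin, while the mean log2 level was higher by 0.11 ± 0.53 (SE, 95% interval -1.18 to 1.41, adjusted p = 0.97, limma). The direction therefore depended on the scale, and without vehicle replicate 1 the difference was -0.78.

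In every library the order of levels per length began with Cd74, H2-Aa and H2-Eb1. H2-Eb1 and H2-Ab1 were level at 11.6 FPKM in vehicle replicate 1, and Ctss stood above H2-Ab1 in vehicle replicate 2 but below it in the other libraries. H2-DMa, H2-DMb1 and Ciita changed places between libraries and did not differ beyond their spread.

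**Figure D2:**
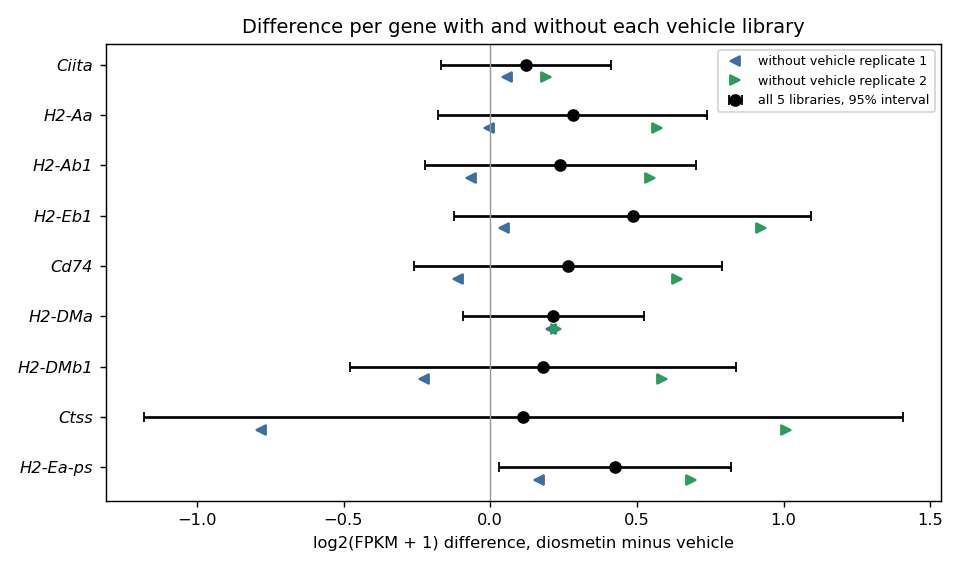
Difference in log2(FPKM + 1), diosmetin minus vehicle (horizontal axis), for each member and H2-Ea-ps, as a black point with its 95% interval from limma over all 5 libraries, with triangles for the value without vehicle replicate 1 or 2. All 8 member intervals include 0, and H2-DMa and Ciita move least between the triangles.

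Ratios within a library do not depend on how libraries are scaled to each other, and they showed which members kept step. The ratio of H2-Ab1 to H2-Aa was 0.547, 0.561 and 0.597 in diosmetin replicates 1 to 3, against 0.571 and 0.595 in vehicle replicates 1 and 2, a range of 1.09-fold where H2-Aa itself ranged 1.75-fold. The ratio of Cd74 to H2-Aa was 2.51, 2.30 and 2.46 under diosmetin, against 2.33 and 2.60 under vehicle, a range of 1.13-fold. These 3 genes thus stood in nearly fixed proportion in all 5 libraries. The ratio of H2-Eb1 to H2-Aa was 0.780, 0.723 and 0.750 under diosmetin, against 0.573 and 0.722 under vehicle, a range of 1.36-fold. It was lowest in vehicle replicate 1, and the groups did not overlap, although diosmetin replicate 2 and vehicle replicate 2 were nearly level.

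Other members did not keep this proportion. The ratio of Ctss to Cd74 was 0.182, 0.152 and 0.105 under diosmetin, against 0.101 and 0.237 under vehicle, a range of 2.35-fold. The ratio of H2-DMb1 to H2-DMa was 0.825, 1.05 and 0.921 under diosmetin, against 0.570 and 1.49 under vehicle. The ratio of Ciita to H2-Aa was 0.0520, 0.0507 and 0.0724 under diosmetin, against 0.0701 and 0.0541 under vehicle. For the 15 ratios examined, exact two-sided permutation p-values ran from 0.2 to 1 and were 1 after Benjamini-Hochberg adjustment. With 3 against 2 libraries this two-sided test can give no p under 0.2, so no ratio could have passed a threshold of 0.05.

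The remaining class II genes included an abundant one. H2-Ea-ps is the alpha chain partner of H2-Eb1. It is annotated as a transcribed pseudogene because the b haplotype of the reference strain has lost the start of the gene, while the d haplotype makes an intact chain. It was at 39.6, 46.1 and 38.6 FPKM in diosmetin replicates 1 to 3, against 25.3 and 36.7 FPKM in vehicle replicates 1 and 2, above H2-Aa and second only to Cd74 among the class II genes listed here in each library. The groups did not overlap, and the log2 difference was 0.43 ± 0.16 (SE, unadjusted p = 0.039, adjusted p = 0.74, limma). Without vehicle replicate 1 the difference was 0.17. Its ratio to H2-Eb1 was 1.71, 1.80 and 1.90 under diosmetin, against 2.18 and 1.66 under vehicle.

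H2-DMb2, the second H2-DM beta chain gene, was at 1.30, 1.30 and 1.83 FPKM in diosmetin replicates 1 to 3, against 0.331 and 1.26 FPKM in vehicle replicates 1 and 2. Vehicle replicate 1 again stood apart, on an estimated 18.1 fragments, and the log2 difference was 0.51 ± 0.24 (SE, adjusted p = 0.74, limma). It was 0.13 without vehicle replicate 1, 0.89 without vehicle replicate 2 and 1.03 with a pseudocount of 0.1. H2-Oa and H2-Ob, the chains of H2-DO, which restrains H2-DM, were too low to test. H2-Oa was at 0.0610, 0.598 and 0.296 FPKM under diosmetin, against 0.199 and 0.392 FPKM under vehicle. H2-Ob was at 0.259, 0.410 and 0.346 FPKM under diosmetin, against 0.346 and 0.381 FPKM under vehicle. H2-Eb2 was at most 0.0515 FPKM and was listed at 0 in 2 libraries.

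**Figure D3:**
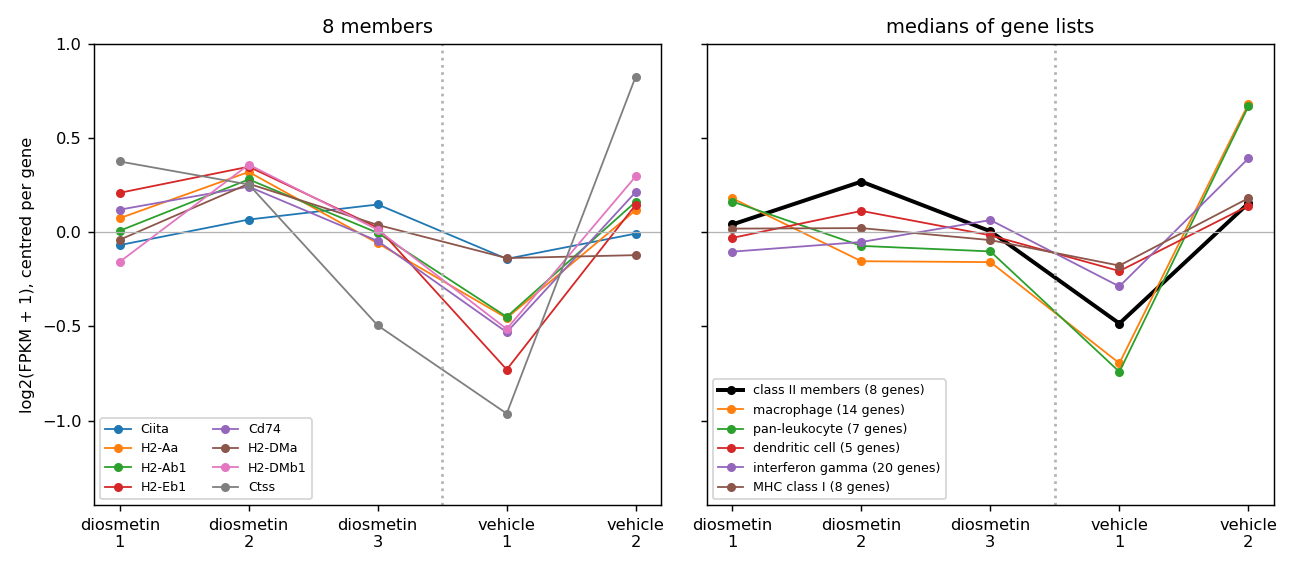
Centred log2(FPKM + 1) in each library (vertical axis), with diosmetin libraries left and vehicle libraries right of the dotted line; lines join the 8 members (left panel) and the medians of gene lists (right panel). The median of the members is -0.48 in vehicle replicate 1 and 0.15 in vehicle replicate 2, while the macrophage list is at -0.70 and 0.68.

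Genes that act on class II promoters or on class II at the surface were measured as a list of 10, of which 9 had a higher and 1 a lower mean under diosmetin. None passed the test, and the median difference was 0.12. Rfxap, a subunit of the RFX complex that binds the X box, was at 5.30, 5.12 and 5.26 FPKM in diosmetin libraries, against 3.96 and 4.65 FPKM in vehicle libraries (log2 difference 0.23 ± 0.093 SE, unadjusted p = 0.046, adjusted p = 0.74, limma). Its difference was 0.14 without vehicle replicate 1. Rfx5, the subunit that contacts DNA, went the other way, at 3.37, 3.39 and 3.98 FPKM under diosmetin, against 4.11 and 4.55 FPKM under vehicle (-0.22 ± 0.10 SE, adjusted p = 0.74, limma). Rfxank, the remaining RFX subunit, averaged 3.04 ± 0.0877 FPKM under diosmetin and 2.54 ± 0.350 FPKM under vehicle. Nfyb, part of the complex that binds the Y box, averaged 6.16 ± 0.847 and 5.14 ± 0.149 FPKM (SD, n = 3 and 2). For all 4 the groups did not overlap, as for 6 of the 10 genes of the list and 24.5% of all genes tested.

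The 14 endosomal proteases and helpers fell on both sides of 0, with 6 of 13 tested genes higher, 7 lower, none past the test, and a median difference of -0.067. Lysosomal proteases also serve tubule cells in digesting filtered protein. Lgmn, an asparagine-specific lysosomal protease, was at 269, 216 and 243 FPKM under diosmetin, against 329 and 264 FPKM under vehicle. Ctsh, an aminopeptidase, was at 90.4, 81.5 and 94.9 FPKM under diosmetin, against 103 and 116 FPKM under vehicle, with no overlap (-0.29 ± 0.093 SE, unadjusted p = 0.020, adjusted p = 0.74, limma). Ifi30, the reductase that opens disulphide bonds of antigens, was at 50.2, 58.7 and 61.8 FPKM under diosmetin, against 46.2 and 52.4 FPKM under vehicle.

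Genes of interferon gamma signalling did not, as a list, share the direction that the chains had over all 5 libraries. Of 20 tested genes 6 were higher and 14 lower under diosmetin, none passed the test, and the median difference was -0.089. Vehicle replicate 2 was the highest library for 17 of them, against 1 of the 8 members, Ctss. Vehicle replicate 1 was the lowest library for 13 of the 20, as it was for all 8 members and for 38.7% of all genes tested. Ifng itself was listed at 0 in 3 libraries and was at most 0.0769 FPKM. Gbp3, a guanylate-binding protein, was at 3.94, 4.02 and 5.44 FPKM under diosmetin, against 5.02 and 7.03 FPKM under vehicle. Irgm2, an immunity-related GTPase, was at 3.99, 4.39 and 4.70 FPKM under diosmetin, against 3.59 and 7.53 FPKM under vehicle. Gbp2 was among the 6 higher genes, at 2.89, 3.33 and 3.37 FPKM under diosmetin, against 1.56 and 3.97 FPKM under vehicle. In MHC class I, H2-K1 was at 23.2, 20.05 and 20.9 FPKM under diosmetin, against 13.1 and 32.0 FPKM under vehicle, so that vehicle replicate 2 stood above the diosmetin libraries there.

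Leukocyte markers also differed between the vehicle libraries. In whole-tissue RNA, fewer cells of a type and less RNA per cell cannot be told apart. Ptprc, the pan-leukocyte marker CD45, was at 6.06, 3.76 and 3.67 FPKM in diosmetin replicates 1 to 3, against 1.86 and 9.50 FPKM in vehicle replicates 1 and 2. All 7 pan-leukocyte markers were lowest in vehicle replicate 1, and their summed level was 47.7, 35.7 and 35.8 FPKM under diosmetin, against 20.04 and 60.7 FPKM under vehicle. Of 14 macrophage markers 12 were lowest in vehicle replicate 1 and 14 highest in vehicle replicate 2, with sums of 139, 74.5 and 75.7 FPKM under diosmetin, against 45.3 and 203 FPKM under vehicle. Lyz2, one of these markers, alone held 60.0, 11.5 and 14.9 FPKM of these sums under diosmetin, against 6.73 and 82.7 FPKM under vehicle. The part of leukocytes and macrophages in the class II levels was not tested.

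Relative to Ptprc, H2-Aa, H2-Ab1, H2-Eb1 and Cd74 were lowest in vehicle replicate 2, where Ptprc itself, which ranged 5.10-fold, was highest. The ratio of H2-DMb1 to Ptprc was lowest in diosmetin replicate 1 (0.222), with vehicle replicate 2 at 0.233. The ratio of H2-Aa to Ptprc was 4.91, 9.43 and 7.37 in diosmetin libraries, against 10.9 and 3.23 in vehicle libraries, and the ratio of Cd74 to Ptprc was 12.3, 21.7 and 18.1 under diosmetin, against 25.4 and 8.40 under vehicle. The ratio of Ctss to Ptprc ranged less, at 2.24, 3.30 and 1.90 under diosmetin, against 2.56 and 1.99 under vehicle. Ctss thus kept step with Ptprc more closely than with Cd74, with ranges of 1.73-fold and 2.35-fold. The vehicle libraries lay on both sides of the diosmetin libraries in the ratios of H2-Aa, H2-Ab1, H2-DMa, Cd74 and Ciita to Ptprc.

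**Figure D4:**
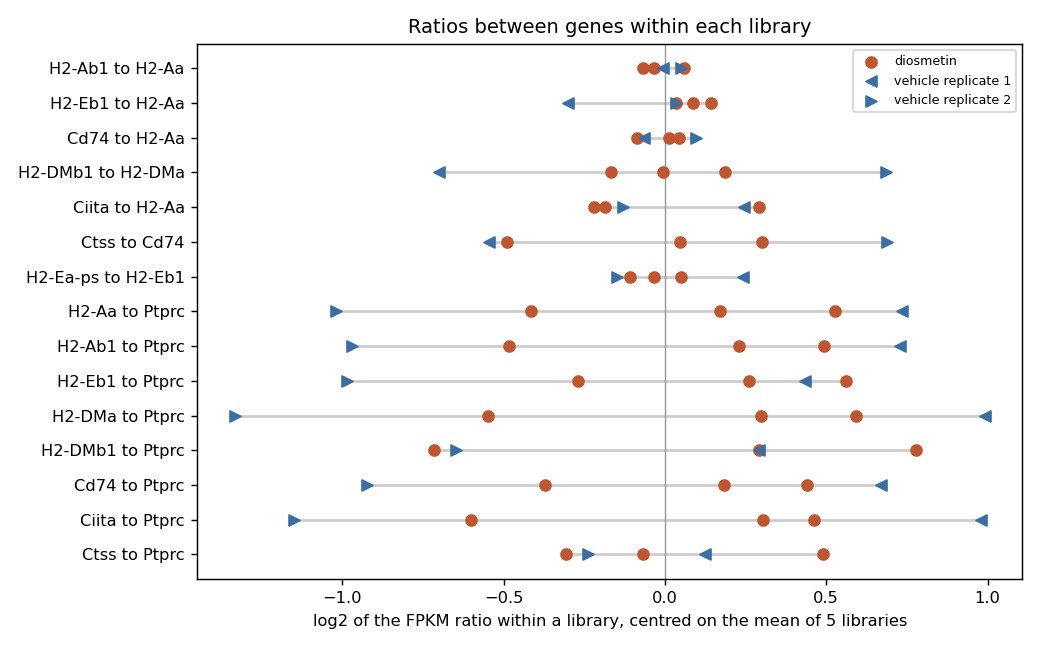
Log2 of FPKM ratios within a library, centred on the mean of the 5 libraries (horizontal axis), for ratios between members, of H2-Ea-ps to H2-Eb1, and of each member to Ptprc, with circles for diosmetin libraries and triangles for vehicle libraries. Ratios of H2-Ab1 and Cd74 to H2-Aa stay within 1.09-fold and 1.13-fold, while the ratio of H2-Aa to Ptprc spans 3.38-fold.

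Markers of the other class II cells were low or divided. Only 2 of 10 B cell markers were high enough to test. The summed level of the 10 was 3.16, 2.49 and 2.69 FPKM under diosmetin, against 3.04 and 5.53 FPKM under vehicle. Dendritic cell markers summed to 11.6, 13.6 and 11.1 FPKM under diosmetin, against 8.43 and 13.4 FPKM under vehicle, with the libraries in the same order as for H2-Aa. Flt3, a growth factor receptor of dendritic cells, was at 0.222, 0.356 and 0.264 FPKM under diosmetin, against 0.0744 and 0.263 FPKM under vehicle. Itgax, an integrin of dendritic cells and macrophages, was at 1.47, 0.861 and 0.693 FPKM under diosmetin, against 0.330 and 2.64 FPKM under vehicle. Zbtb46, a transcription factor of classical dendritic cells, was at 3.69, 4.04 and 3.17 FPKM under diosmetin, against 3.62 and 4.51 FPKM under vehicle. Both were highest in vehicle replicate 2, and Zbtb46 was the highest marker of the list in every library. The order of the summed level was thus not that of each marker. Cd209a was listed at 0 in 1 library. Endothelial markers summed to 174, 198 and 168 FPKM under diosmetin, against 164 and 227 FPKM under vehicle. The proximal tubule list ran the other way, at 2976, 2335 and 2631 FPKM under diosmetin, against 3521 and 2886 FPKM under vehicle. The part of these cell types in the class II levels was not tested.

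The genes whose profile lay closest to that of the members were sought among 12272 other genes that averaged 1 FPKM or more. Likeness was the root mean square distance over the 5 libraries between a gene's centred log2 profile and the median profile of the members. Among the 10 closest were Soga1 (distance 0.0383), Rhof (0.0411), Rgs10 (0.0454), Capn5 (0.0481), Sepn1 (0.0503), Upp1 (0.0505), Fstl1 (0.0526), Mfsd6l (0.0569) and Apobec3 (0.0571). Soga1, the closest, was at 4.71, 5.45 and 4.30 FPKM under diosmetin, against 3.03 and 4.89 FPKM under vehicle. The members set the median profile, and the other 10 genes were picked as closest to it, so these distances are a description only. Among the members themselves H2-Ab1 lay nearest the median profile (0.0229), followed by H2-Aa (0.0446) and Cd74 (0.0552). H2-DMb1 (0.117), H2-Eb1 (0.138), H2-DMa (0.202), Ciita (0.208) and Ctss (0.457) lay farther from it than all 10 of those other genes.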

How the data were processed

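Kidney RNA of 3 diosmetin and 2 vehicle libraries was measured by sequencing. Per the labels' protocols, ribosomal RNA was removed and strand-specific libraries were read from both ends. The authors deposited FPKM values, scaled to transcript length and library total, with no further scaling recorded. Per the submitters' processing notes, the genome build was GRCm38. How reads were aligned, counted and annotated, and whether strand was used, is not given in the sources used here. Columns were matched by the sample code and groups by the treatment label.

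Values were taken as log2(FPKM + 1), which understates changes of low genes. Genes with a mean of at least 0.5 FPKM were tested with limma (two-sided, with a trend in the prior variance, Benjamini-Hochberg over all genes). The fit was tested on simulated data. Of 1533 low genes, 96.0% took whole multiples of a step (within 2% and 0.1 fragments). Depth was estimated from 624 genes with such steps and transcript lengths from GENCODE. Members and lists were chosen with earlier results of these data known. Named genes are the members, the other class II genes, the 4 largest differences of each list, the first 3 markers of each cell type and the 10 closest profiles. Ifng, Cd209a, Socs1, Xcr1 and Itgae were named after their values were seen. Some genes that this rule names are not reported here. Promoters were searched in the 250 bases before the start, although 300 bases had been planned. Alternatives were another pseudocount, other filters, 3 scalings, no trend, and leaving out each library. R 4.3.3, limma 3.58.1, Python 3.11.15, scipy 1.17.1, Biopython 1.88 and matplotlib 3.10.9 were used.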

Additional observations from a re-analysis of the deposited data

How the results depend on the processing

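No member passed the test, and no gene of the whole table did, under any alternative run, so the alternatives bear on direction and size only. Without vehicle replicate 1 the differences turned negative for H2-Aa (-0.0050), H2-Ab1 (-0.067), Cd74 (-0.11), H2-DMb1 (-0.22) and Ctss (-0.78), and Ctss also turned without diosmetin replicate 1 (-0.053). Without vehicle replicate 2 they were 0.57 for H2-Aa, 0.54 for H2-Ab1, 0.64 for Cd74, 0.59 for H2-DMb1 and 1.01 for Ctss. H2-Eb1 (0.048 to 0.92 leaving out each library), H2-DMa (0.13 to 0.28) and Ciita (0.056 to 0.19) stayed positive in every alternative run. Leaving out each library, the median difference of the members ranged from -0.036 to 0.58, the number of members lower under diosmetin from 0 to 5, the number without overlap from 1 (beside 30.7% of all genes) to 8 (beside 62.4% of all genes, without vehicle replicate 2), and the number of genes of the whole table at an unadjusted p under 0.05 from 386 (without diosmetin replicate 2) to 1463 (without vehicle replicate 2). Where a vehicle library is left out, the remaining one is assumed to vary like the diosmetin libraries. With quantile normalization 2 members did not overlap, beside 22.3% of all genes. Median-of-ratios scaling moved the median of all genes to -0.0040, against 0.043 as reported, and turned no member. The differences of H2-Ea-ps (0.17 to 0.69 leaving out each library) and H2-DMb2 (0.13 to 0.89) kept their sign. The cause of these shifts was not tested. No paired analysis was possible because the replicate numbers only name libraries in accession order.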

Other observations

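Several single genes had no overlap between the groups, as did 24.5% of all genes tested, and none passed the test over all genes. Batf3, a transcription factor of cross-presenting dendritic cells, was at 2.52, 2.91 and 2.40 FPKM in diosmetin replicates 1 to 3, against 0.768 and 1.30 FPKM in vehicle replicates 1 and 2. Its log2 difference was 0.84 ± 0.15 (SE, unadjusted p = 0.00127, adjusted p = 0.74, limma) and lay between 0.65 and 1.03 when each library was left out. With a pseudocount of 0.1 it was 1.29. Clec9a, a receptor of the same dendritic cells, was at 2.56, 3.17 and 2.81 FPKM under diosmetin, against 2.54 and 3.25 FPKM under vehicle, so it did not share that difference. Xcr1 and Itgae of the dendritic cell list had higher mean FPKM under diosmetin, with overlap. Xcr1 was at 0.268, 0.909 and 0.572 FPKM under diosmetin, against 0.287 and 0.439 FPKM under vehicle. Itgae was at 0.279, 0.964 and 0.633 FPKM under diosmetin, against 0.294 and 0.396 FPKM under vehicle. The dendritic cell list as a whole had 2 of 5 tested genes higher and 3 lower.

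Cd8a, a chain of the class I coreceptor carried by cytotoxic T cells and by some dendritic cells, was at 1.53, 1.501 and 1.53 FPKM under diosmetin, against 1.02 and 0.565 FPKM under vehicle (0.50 ± 0.14 SE, unadjusted p = 0.012, adjusted p = 0.74, limma). Its difference was 0.32 without vehicle replicate 2, 0.90 with a pseudocount of 0.1 and 0.76 after rescaling to TPM. Cd3e, a chain of the T cell receptor complex, was at 0.717, 0.536 and 0.890 FPKM under diosmetin, against 0.257 and 0.569 FPKM under vehicle, with overlap. Socs1, an inhibitor of interferon signalling, was at 0.573, 0.902 and 0.645 FPKM under diosmetin, against 0.194 and 0.292 FPKM under vehicle (0.45 ± 0.14 SE, unadjusted p = 0.018, adjusted p = 0.74, limma). Its size depended on the offset added to low values, at 1.23 with a pseudocount of 0.1 and 0.86 after rescaling to TPM. Of costimulatory molecules, Icosl was at 4.36, 4.25 and 4.68 FPKM under diosmetin, against 4.89 and 5.78 FPKM under vehicle, and Cd40 at 1.16, 1.69 and 1.39 FPKM under diosmetin, against 1.07 and 3.12 FPKM under vehicle. In the other lists, the share of tested genes with a higher mean log2 level under diosmetin varied, beside 63.9% of all genes tested. It was 3 of 3 T cell, 4 of 5 plasma cell, 7 of 9 injured tubule and 4 of 8 MHC class I genes. It was 1 of 3 costimulation, 1 of 8 podocyte and 0 of 8 proximal tubule genes. It was also 5 of 14 macrophage, 3 of 7 pan-leukocyte, 0 of 2 B cell and 2 of 8 endothelial genes. All 8 podocyte genes were highest in vehicle replicate 2, as were 17.8% of all genes tested.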
